A study of Mus musculus with 8 samples.

Results

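*Slurp2*, *Lynx1* and 8 related genes (*Slurp1*, *Ly6d*, *Ly6e*, *Ly6h*, *Ly6a*, *Ly6c1*, *Lypd1* and *Lypd6*) were followed in isolated pituitary gonadotropes of male and female mice. They were taken by gene symbol from a table of 55523 entries, and all 10 were found. The set was drawn up around *Slurp2* and *Lynx1* because of their difference between the sexes in these samples, so that difference is given for both as a description. Cells positive for EGFP had been sorted from pituitaries of Ad4BP-BAC-EGFP mice, giving 4 male and 4 female samples. All 8 carried the same transgene, in which a bacterial artificial chromosome of *Nr5a1* (also called Ad4BP) drives EGFP, and none had a treatment or a further allele in the labels. The ages of the mice and the number of mice behind a sample are not given in the sources used here, so the p-values measure the spread between these samples, which may be partly technical. The study left male replicate 1 out of its own analysis, and its values are shown apart from those of male replicates 2 to 4.

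Proteins of the Ly6/uPAR family are small and are folded by disulphide bonds between conserved cysteines into a fold with 3 loops, the three-finger fold that snake toxins also use. Most members are held at the cell surface by a glycosylphosphatidylinositol (GPI) anchor, whereas SLURP1 and SLURP2 are secreted. Several of them, among them LYNX1, LY6H, SLURP1 and SLURP2, are known to bind nicotinic acetylcholine receptors and to change how they respond. Gonadotropes are the pituitary cells that make luteinizing hormone and follicle-stimulating hormone, and NR5A1 is a nuclear receptor that they need for full hormone production.

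The coding sequences of *Slurp2*, *Lynx1* and *Ly6h* are shown because the samples of the sexes did not overlap for these 3 genes. They come from the longest coding sequences of the 3 genes in the GENCODE M21 annotation, run 5′ to 3′ up to the stop codon and hold at most 300 bases, and the capitals mark the in-frame cysteine codons. *Slurp2* is shown whole, *Lynx1* from codon 18 and *Ly6h* from codon 62.
Slurp2: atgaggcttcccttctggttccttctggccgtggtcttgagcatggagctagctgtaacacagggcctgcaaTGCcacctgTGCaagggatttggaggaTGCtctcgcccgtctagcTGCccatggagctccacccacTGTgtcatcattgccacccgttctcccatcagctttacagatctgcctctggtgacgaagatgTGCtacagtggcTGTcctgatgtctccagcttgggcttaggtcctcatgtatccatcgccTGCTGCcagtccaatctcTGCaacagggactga
Lynx1: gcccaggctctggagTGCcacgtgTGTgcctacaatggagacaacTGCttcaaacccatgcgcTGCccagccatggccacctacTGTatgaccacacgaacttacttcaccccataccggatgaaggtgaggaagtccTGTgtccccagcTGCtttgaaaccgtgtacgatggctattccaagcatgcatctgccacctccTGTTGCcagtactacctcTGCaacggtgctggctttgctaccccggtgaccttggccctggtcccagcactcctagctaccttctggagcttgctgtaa
Ly6h: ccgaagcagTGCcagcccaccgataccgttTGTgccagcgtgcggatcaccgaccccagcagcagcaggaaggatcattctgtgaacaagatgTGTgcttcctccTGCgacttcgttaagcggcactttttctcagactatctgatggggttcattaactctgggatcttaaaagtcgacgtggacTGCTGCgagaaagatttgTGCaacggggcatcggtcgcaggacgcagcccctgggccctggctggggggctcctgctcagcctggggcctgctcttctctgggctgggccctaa

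The *Slurp2* sequence has 97 codons with 10 for cysteine, *Lynx1* has 116 with 10, and *Ly6h* has 160 with 12, of which 7 are in the stretch shown. In each of the 10 genes a cysteine codon followed by an asparagine codon stands near the end of the reading frame. After the last such pair's cysteine, *Slurp2* has 3 codons before the stop and *Slurp1* has 11, whereas the other 8 genes have between 25 and 46. In the anchored members a longer tail holds the GPI anchor signal, which was not looked for in these sequences. The 46 codons are those of *Ly6c1*, whose longest coding sequence has another end than that of its relative *Ly6c2*, with 30. Over the 272 aligned bases, the coding sequences of *Slurp2* and *Lynx1* are 69.5% identical. That is not particular to this pair, since *Slurp2* is 73.3% identical to *Lypd6* and 65.3% to *Slurp1* over their aligned bases.

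*Slurp2* and *Lynx1* are neighbours on the minus strand of chromosome 15. In GRCm38 (mm10), the build to which the reads were mapped, *Slurp2* (ENSMUSG00000075605.3) spans chr15:74742764-74746693 and *Lynx1* (ENSMUSG00000022594.14) spans chr15:74747852-74753046. The gap between them is 1158 bp, and no exon is shared. Of the 10 genes, 8 lie in this cluster. *Slurp1* is at chr15:74724318-74728034, *Ly6d* at chr15:74762056-74763620 and *Ly6e* at chr15:74955051-74959905. *Ly6a* is at chr15:74994877-74998031, *Ly6c1* at chr15:75044018-75048830 and *Ly6h* at chr15:75551268-75567255. *Lypd1* lies on chromosome 1, at chr1:125867622-125913101, and *Lypd6* on chromosome 2, at chr2:50066429-50193569.

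Reads of one gene can be counted for another where names or sequences are shared, so both were checked. In the table, 9 of the 10 genes are named by an assembled locus and 1, *Lypd6*, by an Ensembl gene. Although 1053 loci of the table hold more than 1 symbol, none of the 10 genes shares its locus with another symbol. No stretch of 50 bases from the transcripts of *Slurp2*, *Lynx1*, *Ly6d*, *Ly6e* or *Lypd6* was found in the transcripts of another gene. For *Ly6a*, 19% of such stretches were found elsewhere, with *Ly6c1* sharing the most, but no stretch of 150 bases, the length of a read, was. For *Ly6c1* the shares were 32.8% of the 50-base and 2.29% of the 150-base stretches, so its level is uncertain to that extent. *Ly6c2*, whose coding sequence is 93.8% identical, shared the most 50-base stretches with it. *Slurp1* and *Lypd1* overlap exons of *Them6* and *Gpr39* on the other strand, by 322 and 1202 bp. The library kit does not mark the strand, so the reads of an overlap cannot be assigned to either strand.

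The total count was between 18774578 and 31302588 per sample. Levels are given as CPM, the count of a gene per 1e6 counts relative to its library size, after edgeR's trimmed-mean (TMM) scaling of libraries. The floor, 3 counts, was between 0.0921 and 0.146 CPM, a limit set by counting alone, since PCR copies of a molecule are counted as separate reads. The cells were checked against markers. All 5 gonadotrope markers (*Lhb*, *Fshb*, *Cga*, *Gnrhr* and *Nr5a1*) were detected in every sample. Their summed level was 21488 to 34863 CPM in females, 67930 to 75717 CPM in male replicates 2 to 4, with 28423 CPM in male replicate 1. *Cga* and *Fshb* hold most of this sum, and *Nr5a1*, on which the sort relies, had the other order, with 862 to 1266 CPM in females and 584 to 801 CPM in male replicates 2 to 4, but only 16.3 CPM in male replicate 1. The 7 markers of other hormone cells were also detected in every sample, with sums of 36423 to 98150 CPM in females, 93870 to 187005 CPM in male replicates 2 to 4, with 50646 CPM in male replicate 1. Transcripts that mark other pituitary hormone cells were thus counted in all 8 samples.

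The levels of the 10 genes covered a wide range, and *Slurp1* had 0 counts in all 8 samples. Compared per kilobase of annotated exon, *Ly6e*, an interferon-induced member, was the highest of the 10 in females at 218 ± 94.4 CPM per kb (SD, n = 4). *Slurp2* came next at 199 ± 56.9 CPM per kb, within the spread of *Ly6e*, and was followed by *Ly6h* at 106 ± 28.3, *Ly6a* at 74.7 ± 10 and *Lynx1* at 20.8 ± 1.93 CPM per kb, and of these neighbours *Ly6h* and *Ly6a* overlapped within 1 SD. In male replicates 2 to 4, *Ly6e* was 228 ± 55.4 CPM per kb (SD, n = 3), and *Ly6h*, at 186 ± 47.0, lay within its spread. *Ly6a* followed at 80.6 ± 8.37, and *Slurp2* came after it at 47.4 ± 12.6 CPM per kb. *Ly6c1*, at 10.6 ± 7.40, and *Lynx1*, at 10.3 ± 1.29 CPM per kb, did not differ beyond their spread in these males. *Ly6d*, *Lypd1* and *Lypd6* were the lowest of the detected genes in both sexes, between 0.283 and 1.41 CPM per kb, and neighbours in their order overlapped. The length used is the union of annotated exons, which is 545 bp for *Slurp2* and 4662 bp for *Lynx1*, and a gene read from shorter transcripts would have a higher level per kb.

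**Figure D1:**
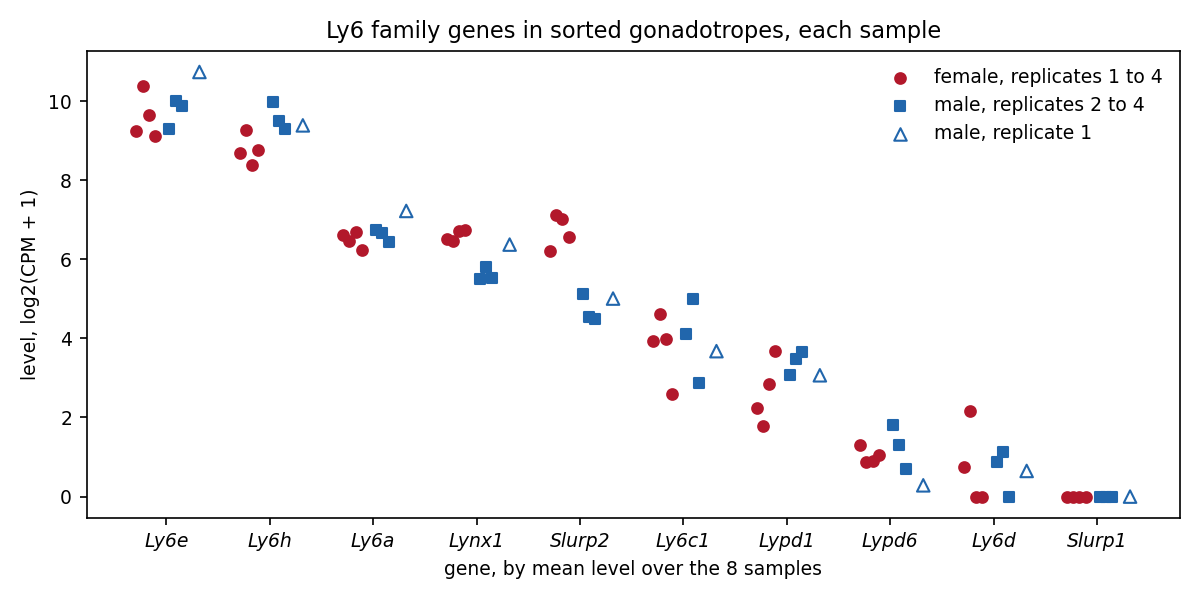
Level of each of the 10 genes as log2(CPM + 1) in each of the 8 samples, with females as circles, male replicates 2 to 4 as squares and male replicate 1 as an open triangle. The female samples lie above all male samples for *Slurp2* and *Lynx1*, below them for *Ly6h* and overlap in range with them for the other detected genes, and *Slurp1* is at 0 throughout.

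Female replicates 1 to 4 were set against male replicates 2 to 4 in edgeR's quasi-likelihood test, with Benjamini-Hochberg adjustment over 20152 genes. Of the 10 genes, 9 passed the filter on low counts, and 2 had an adjusted p under 0.05, both higher in females. Over all genes tested, 2.34% passed in either direction, 1.35% higher in females and 0.983% higher in males. The calls over all genes were 273 higher and 198 lower in females, a split that became 675 and 133 when libraries were scaled by their totals alone. The samples of the sexes did not overlap for 3 of the 9 genes, against 22.3% of all genes tested. The median log2 fold change of the 9 genes, female over male, was -0.08, and that of all genes tested was 0.03. Because the set was built from this contrast, nothing is read from these counts. In sorted bulk samples, fewer cells of a type and less RNA per cell cannot be told apart.

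*Slurp2*, which encodes a secreted member, was 72.4, 138.7, 129.5 and 93.5 CPM in female replicates 1 to 4. It was 33.8, 22.3 and 21.4 CPM in male replicates 2 to 4, with 31.1 CPM in male replicate 1. Each female sample was thus above each male sample, also with male replicate 1, and the female mean was 4.2-fold the mean of male replicates 2 to 4. The log2 fold change was 2.11 (SE 0.302, 95% interval 1.40 to 2.82), with an adjusted p of 0.0293 in edgeR's quasi-likelihood test. These are the values that led to its choice.

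*Lynx1*, which encodes a GPI-anchored modulator of nicotinic receptors best known from the brain, varied less than *Slurp2* among the females and among male replicates 2 to 4. It was 90.6, 87.9, 103 and 106 CPM in the females and 43.9, 54.8 and 45 CPM in male replicates 2 to 4. Male replicate 1, at 81.7 CPM, lay just under the lowest female and well above the other males. The female mean was 2.02-fold the mean of male replicates 2 to 4. The log2 fold change was 1.05 (SE 0.149, 95% interval 0.70 to 1.40), and the adjusted p was 0.0286 by edgeR. With male replicate 1 in the fit, 1 of the 10 genes was called, against 0.342% of all genes tested. The log2 fold change was then 0.78 with an adjusted p of 0.262 for *Lynx1*, whereas *Slurp2* had an adjusted p of 0.0279. The folds changed little when single samples were left out, between 1.94 and 2.34 for *Slurp2* and between 0.98 and 1.15 for *Lynx1* on the log2 scale, but the calls did change. Leaving out female replicate 1 kept both, whereas neither gene passed without female replicate 2, 3 or 4 or male replicate 2, 3 or 4 (adjusted p between 0.0559 and 0.109, edgeR).

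The 2 neighbours did not move in proportion. The ratio of *Slurp2* to *Lynx1* counts within a sample, which does not depend on the library scaling, was 0.800, 1.58, 1.26 and 0.881 in female replicates 1 to 4. It was 0.769, 0.406 and 0.476 in male replicates 2 to 4 and 0.381 in male replicate 1. Each female ratio was above each male ratio, although female replicate 1 and male replicate 2 were close, and the means were 1.13 ± 0.360 (SD, n = 4) and 0.550 ± 0.192 (SD, n = 3). Since both genes were chosen on the same contrast, the ratio is a description with no test.

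**Figure D2:**
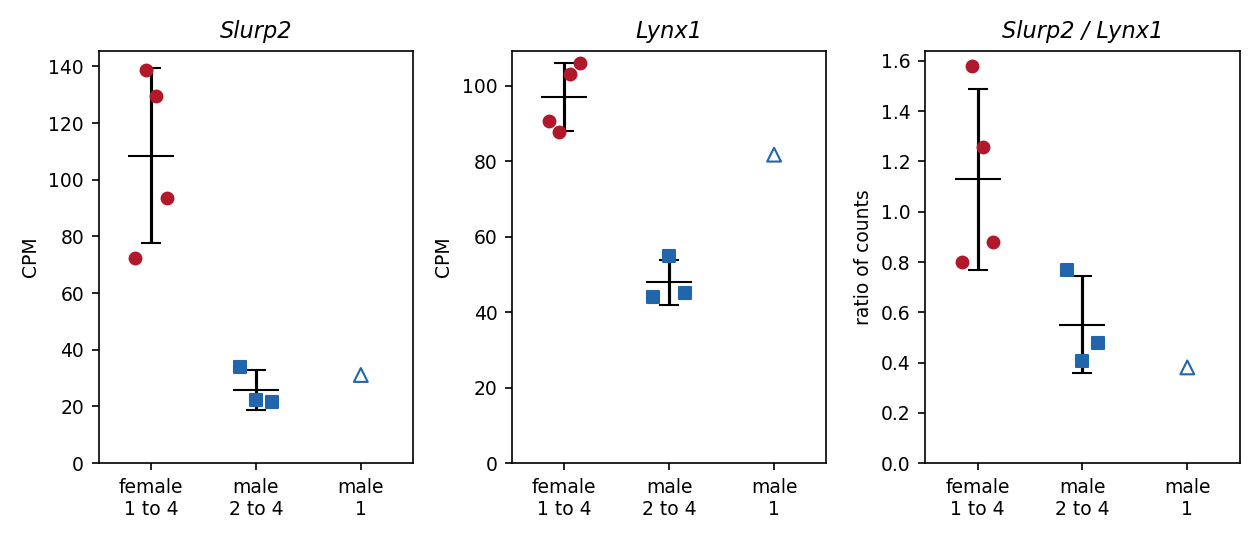
*Slurp2* and *Lynx1* in CPM and the ratio of their counts, with each sample as a point and the mean and SD as bars for females (n = 4) and male replicates 2 to 4 (n = 3), and male replicate 1 apart. Male replicate 1 sits with the other males for *Slurp2* (31.1 CPM) but near the females for *Lynx1* (81.7 CPM), and it has the lowest ratio, 0.381.

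*Ly6h*, a member known from neurons, had the opposite direction. It was 410.4, 617, 335 and 436 CPM in the females, 1008, 722 and 626 CPM in male replicates 2 to 4, with 667 CPM in male replicate 1. Each male sample was above each female sample, but female replicate 2 and male replicate 4 were 617 and 626 CPM. The mean of male replicates 2 to 4 was 1.75-fold the female mean. The log2 fold change, female over male, was -0.77 (SE 0.255, 95% interval -1.37 to -0.17), and the adjusted p of 0.160 by edgeR missed the threshold.

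The abundant members *Ly6e* and *Ly6a* overlapped between the sexes. *Ly6e* was 608, 1335, 807 and 549 CPM in the females, 629, 1031 and 932 CPM in male replicates 2 to 4, with 1702 CPM in male replicate 1, its highest value. Its log2 fold change was -0.03 (95% interval -0.85 to 0.78). *Ly6a*, known as a marker of stem cells and of endothelium, was 96.7, 87.0, 102 and 74.5 CPM in the females and 106, 99.7 and 86.0 CPM in male replicates 2 to 4. Male replicate 1, at 148 CPM, was again the highest. The log2 fold change of *Ly6a* was -0.08 (95% interval -0.43 to 0.28). Both signs turned when libraries were scaled by their totals alone, to 0.18 for *Ly6e* and 0.14 for *Ly6a*, a scaling that moved the median of all genes from 0.03 to 0.24.

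*Ly6c1*, a marker of endothelial cells and some leukocytes, was 14.3, 23.4, 14.9 and 5.06 CPM in the females, 16.2, 31 and 6.36 CPM in male replicates 2 to 4, with 11.8 CPM in male replicate 1. Its log2 fold change was -0.27 (95% interval -1.73 to 1.20), and it became 0.39 without male replicate 3. The replicates of each sex therefore differed more than the sexes did. The 10 endothelial markers were detected in every sample, at sums of 582 to 773 CPM in females, 616 to 812 CPM in male replicates 2 to 4, with 963 CPM in male replicate 1. None of the 10 was called between the sexes. Male replicate 1 had the highest sum, *Ly6a* and *Ly6e* of the 8 samples. Of the 10 endothelial markers, 7 were above all other males there, as *Kdr* with 315 CPM against 156 to 224 CPM, 1 was within their range and 2 were below it, *Emcn* with 17.4 CPM against 58.6 to 85.3 CPM and *Esam* with 3.62 CPM against 66.1 to 78.5 CPM. These 3 markers were chosen after their values were seen, and the part of endothelial RNA in those levels was not tested.

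The remaining members were scarce. *Lypd1*, which encodes a neuronal modulator of nicotinic receptors, was 3.72, 2.44, 6.14 and 11.9 CPM in the females, 7.49, 10.1 and 11.7 CPM in male replicates 2 to 4, with 7.38 CPM in male replicate 1. *Lypd6*, whose product acts on Wnt and nicotinic signalling, was 1.45, 0.83, 0.859 and 1.08 CPM in the females, 2.52, 1.47 and 0.636 CPM in male replicates 2 to 4, with 0.218 CPM in male replicate 1. The sexes overlapped for both, with log2 fold changes of -0.66 (95% interval -1.88 to 0.57) for *Lypd1* and -0.51 (95% interval -1.75 to 0.72) for *Lypd6*. The *Lypd1* value moved to -1.24 without female replicate 4 and to -0.42 without female replicate 2. *Ly6d*, an epithelial and lymphoid marker, was 0.684 and 3.51 CPM in female replicates 1 and 2 and 0 in the other females, and 0.827, 1.17 and 0 CPM in male replicates 2 to 4. Its log2 fold change of 0.69 turned to -1.54 without female replicate 2, so that sample set its direction. *Slurp1* at 0 counts allows a level of up to 0.0921 to 0.146 CPM, although reads in its overlap with *Them6*, which had 75 to 371 counts, would not show in it.

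**Figure D3:**
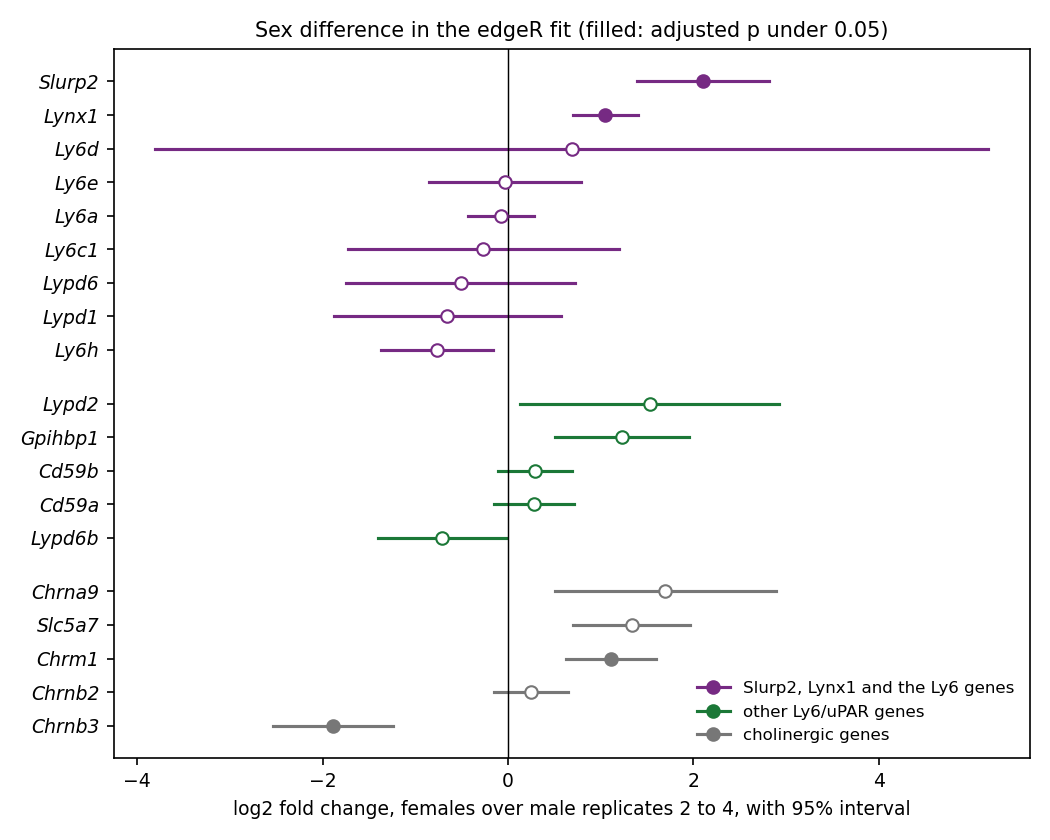
Log2 fold change of females over male replicates 2 to 4 with its 95% interval for the 9 genes tested, 5 other Ly6/uPAR genes and 5 cholinergic genes; filled points have an adjusted p under 0.05 in edgeR. *Slurp2* (2.11), *Lynx1* (1.05) and *Chrm1* (1.11) lie to the right with filled points and *Chrnb3* (-1.89) to the left, while the interval of *Ly6d* is the widest.

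Along the cluster, levels differed widely from gene to gene. *Lypd2*, the neighbour of *Slurp2* on the other side, 8434 bp away, was 2.22, 0.976, 1.93 and 1.21 CPM in the females, 0.906, 0.227 and 0.545 CPM in male replicates 2 to 4, with 1.75 CPM in male replicate 1. Each female was above male replicates 2 to 4 here too, but male replicate 1 lay within the female range, and the log2 fold change of 1.53 (SE 0.593) had an adjusted p of 0.216 in edgeR's test. *Gml*, *Gml2*, *Ly6g* and *Ly6l* had 0 counts in all 8 samples. *Gpihbp1*, at the far end near *Ly6h*, encodes the endothelial carrier of lipoprotein lipase. It was 2.12 to 3.12 CPM in females, 0.954 to 1.34 CPM in male replicates 2 to 4, with 4.06 CPM in male replicate 1, and its log2 fold change of 1.23 (SE 0.306) had an adjusted p of 0.0837 by edgeR. *Ly6f* was listed only in male replicates 2 to 4, at 0.512, 0.491 and 0.954 CPM, with 0 counts in the 4 females and in male replicate 1, and its adjusted p was 0.0688. *Lypd2*, *Gpihbp1* and *Ly6f* were chosen after their values were seen.

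**Figure D4:**
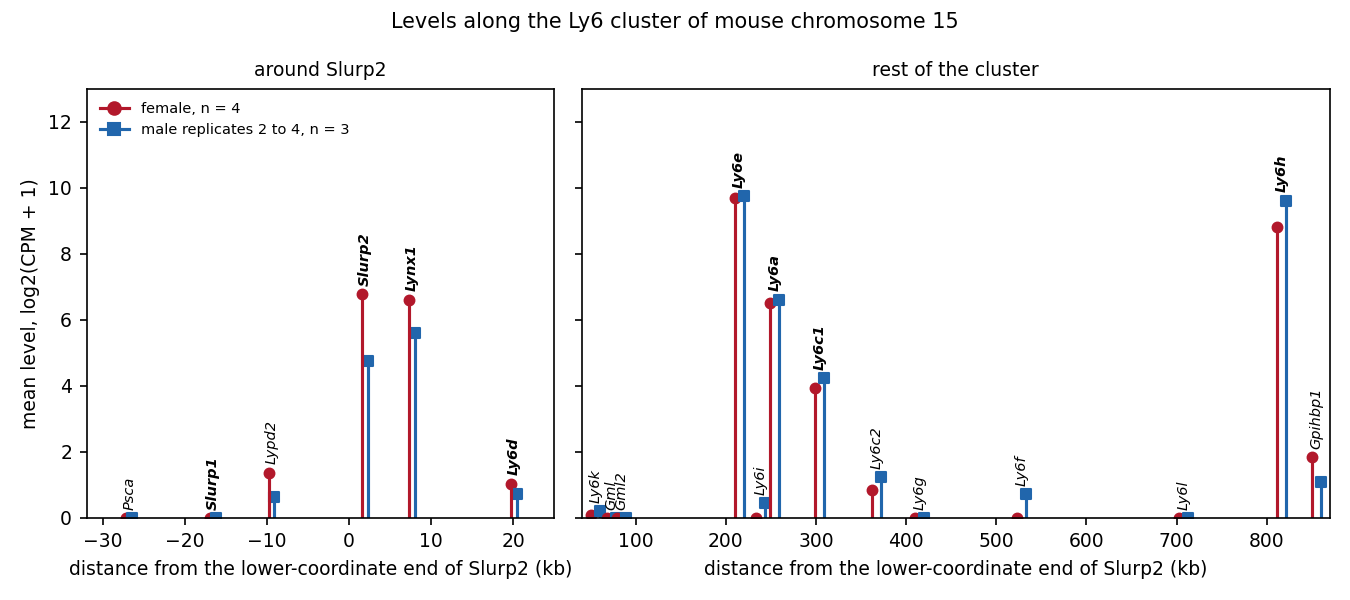
Mean level as log2(mean CPM + 1) of 19 genes of the chromosome 15 cluster against their distance in kb from the lower-coordinate end of *Slurp2*, for females (circles) and male replicates 2 to 4 (squares), with the genes of the set in bold. *Slurp2* and *Lynx1* stand higher in females, *Ly6h* stands higher in males some 809 to 824 kb away, and *Psca*, *Slurp1*, *Gml*, *Gml2*, *Ly6g* and *Ly6l* are at 0 in both groups drawn.

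Beyond the 10, 34 further Ly6/uPAR genes were listed, of which 30 are in the table used here, 8 had 0 counts in all samples and 12 were tested. None passed at an adjusted p under 0.05 in edgeR, 4 had an unadjusted p under 0.05, and DESeq2 called 2, *Ly6f* and *Gpihbp1*. Over all genes tested, 19.9% had an unadjusted p under 0.05 and 11.6% were called by DESeq2. The median log2 fold change of the 12 was -0.13, against 0.03 for all genes. The 3 most abundant were *Cd59a*, *Cd59b* and *Lypd6b*. *Lypd6b*, a relative of *Lypd6*, was 4.17 to 8.44 CPM in females and 9.02 to 14.0 CPM in male replicates 2 to 4, with a log2 fold change of -0.71 (SE 0.294) and an adjusted p of 0.239.

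Male replicate 1 stood apart for *Cd59a*. *Cd59a* and *Cd59b* encode GPI-anchored inhibitors of the complement membrane attack complex and lie next to each other on chromosome 2, *Cd59b* at chr2:104069849-104091187 and *Cd59a* at chr2:104095801-104115354. *Cd59a* was 367, 277, 442 and 317 CPM in the females and 329.8, 308 and 248 CPM in male replicates 2 to 4, but 1.96 CPM in male replicate 1. *Cd59b* was 8.13 to 10.3 CPM in females, 6.86 to 8.46 CPM in male replicates 2 to 4, with 11.1 CPM in male replicate 1, so the low value was not shared by the neighbour. The ratio of male replicate 1 to the mean of the other males was 0.00665 for *Cd59a*. Of the 10330 genes with a mean of at least 10 CPM in male replicates 2 to 4, 36, with *Cd59a* among them, had a ratio that low, and for *Nr5a1*, with a ratio of 0.0227, the number was 92. The ratio was 1.97 for *Ly6e*, 1.71 for *Lynx1*, 1.53 for *Ly6a*, 1.21 for *Slurp2*, 0.849 for *Ly6h* and 0.661 for *Ly6c1*, and the median over the 10330 genes was 0.877. A single library allows no test, and the check for shared loci covered the set, not *Cd59a*.

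**Figure D5:**
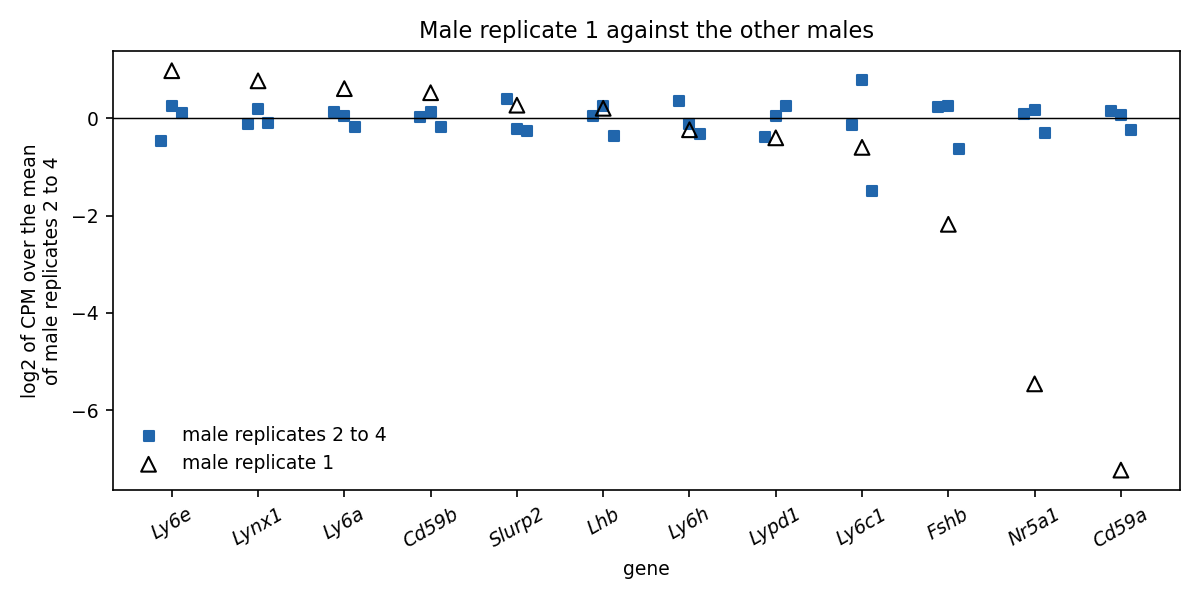
Log2 of the CPM in each male sample over the mean of male replicates 2 to 4, for 7 genes of the set, *Cd59a*, *Cd59b* and 3 gonadotrope genes, with male replicates 2 to 4 as squares and male replicate 1 as an open triangle. Male replicate 1 is lowest for *Cd59a* (-7.23) and *Nr5a1* (-5.46), above the other males for *Ly6e*, *Lynx1*, *Ly6a* and *Cd59b*, and within their range for *Slurp2*, *Ly6h* and *Ly6c1*.

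Since several of these proteins act on acetylcholine receptors, 26 cholinergic genes were examined. Of these, 15 were tested and 2 passed, 1 in each direction, against 2.34% of all genes. The median log2 fold change of the 15 was -0.43, against 0.03 for all genes. *Chrnb3*, an accessory subunit of nicotinic receptors, was 11.7, 18.8, 18.9 and 23.7 CPM in the females and 53.3, 73.5 and 80.7 CPM in male replicates 2 to 4. Male replicate 1, at 17.3 CPM, lay within the female range. Its log2 fold change was -1.89 (SE 0.274), with an adjusted p of 0.0296 by edgeR, which became 0.238 with male replicate 1 included. It passed without female replicate 1 or 4 and in no other fit that left out a sample. *Chrm1*, a muscarinic receptor coupled to phospholipase C, was 20.8, 17.4, 14.9 and 14.0 CPM in the females, 8.67, 6.68 and 8.45 CPM in male replicates 2 to 4, with 12 CPM in male replicate 1. All females were above all males, with a log2 fold change of 1.11 (SE 0.208) and an adjusted p of 0.0479 by edgeR, which rose above the threshold without any 1 of the 7 samples (0.0754 to 0.158), while the log2 fold change stayed between 0.97 and 1.17.

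Among the abundant nicotinic subunits, *Chrnb2* was 72.0 to 108 CPM in females, 69.9 to 88.0 CPM in male replicates 2 to 4, with 88.3 CPM in male replicate 1, with a log2 fold change of 0.25 (95% interval -0.15 to 0.65). *Chrna9* was 77.7, 24.5, 59.6 and 127 CPM in the females and 21.9, 25.3 and 20.9 CPM in male replicates 2 to 4. Female replicate 2 lay among the males, and the log2 fold change of 1.70 (SE 0.505) had an adjusted p of 0.127 in edgeR. Of the genes for acetylcholine itself, *Slc5a7*, the choline transporter of cholinergic neurons, was 27.1, 23.5, 21.5 and 21.1 CPM in the females, 12.4, 10.1 and 5.90 CPM in male replicates 2 to 4, with 11.7 CPM in male replicate 1. Each female was above each male, and the adjusted p of 0.0537 by edgeR missed the threshold. *Chat*, which makes acetylcholine, had 0 counts in all 8 samples. *Ache* and *Bche*, which break acetylcholine down, were 4.45 to 8.30 and 2.64 to 8.34 CPM in females and 7.01 to 12.5 and 7.36 to 10.2 CPM in male replicates 2 to 4, and neither passed. Of the muscarinic genes next in level, *Chrm3* was 1.17 to 3.64 CPM in females and 0.944 to 1.68 CPM in male replicates 2 to 4, and *Chrm4* was at most 0.681 CPM.

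Some markers of other cells moved with sex in these samples as well. All 8 stem and folliculostellate markers were detected in every sample. By edgeR, *Sox9* and *Cdh26* were called higher in females and *Lcn2* higher in males, against 2.34% of all genes tested called in either direction. *Sox9* was 193 to 304 CPM in females, 108 to 135 CPM in male replicates 2 to 4, with 237 CPM in male replicate 1. *Cdh26* was 42.3 to 54.9 CPM in females and 9.63 to 22.5 CPM in male replicates 2 to 4, but 7.29 CPM in male replicate 1. *Lcn2* was 3.71 to 12.1 CPM in females and 27.3 to 36.3 CPM in male replicates 2 to 4, but 62.5 CPM in male replicate 1. In male replicate 1, 6 of the 8 markers lay within the female range, and 4 of these 6 were outside the range of the other males, *Sox9* among them. *Cdh26* and *Lcn2* were the 2 outside the female range. Of the 8, 6 were fitted higher in females and 5 did not overlap between females and male replicates 2 to 4. The median log2 fold change of the 8, female over male, was 0.93. Of all genes tested, 22.3% did not overlap, and their median was 0.03. *Sox2* and *Cpxm2* were 1.75-fold and 2.34-fold higher in the female mean without overlap, with adjusted p of 0.0748 and 0.0535 by edgeR. The summed level of the 8 markers, over which *Cyp2f2* had the highest mean (635 CPM in females and 756 CPM in male replicates 2 to 4), was 946 to 1531 CPM in females, 936 to 1274 CPM in male replicates 2 to 4, with 1259 CPM in male replicate 1. Of the 7 markers of other hormone cells *Pou1f1* passed, and of the 5 gonadotrope markers *Fshb* passed. Both were higher in males, and the share called over all genes tested was again 2.34%. The 7 stromal markers summed to 124 to 174 CPM in females and 108 to 117 CPM in male replicates 2 to 4, and none was called. The 7 keratinocyte and squamous markers summed to 131 to 245 CPM in females, 104 to 122 CPM in male replicates 2 to 4, with 191 CPM in male replicate 1, and the 8 immune markers to 29.4 to 83.9 CPM and 48.5 to 94.8 CPM in the sexes, with no call in either list. The part of these cells in the levels of *Slurp2*, *Lynx1* and *Ly6h* was not tested.

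The genes whose levels followed *Slurp2* most closely were looked for by Pearson correlation of log2(CPM + 1) over the 8 samples among 14916 genes, as a description. The nearest 5 were *Dlx6* (0.98), *Zfp866* (0.98), *Bard1* (0.98), *Tcf24* (0.98) and *Nek9* (0.97). *Tcf24* was 18.5 to 22.6 CPM in females, 3.41 to 6.86 CPM in male replicates 2 to 4, with 5.98 CPM in male replicate 1. *Dlx6*, a homeobox gene, was 0.770 to 1.41 CPM in females but only 0.0378 to 0.355 CPM in male replicates 2 to 4, where its lowest value is below the floor of 3 counts. The 3 genes nearest to *Lynx1* were *Map1a* (0.99), *Basp1* (0.99) and *Ston2* (0.99). *Map1a*, a microtubule-associated gene of neurons, was 65.3 to 84.9 CPM in females, 30.8 to 38.1 CPM in male replicates 2 to 4, with 61.8 CPM in male replicate 1, so that it shared the place of male replicate 1 near the females. The 8 points share their libraries and depth. Without male replicate 1, 2 of the 5 genes named for *Slurp2* and all 3 named for *Lynx1* remained the nearest.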

How the data were processed

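RNA of EGFP-positive cells was sequenced from 4 male and 4 female samples. Per the study's methods, total RNA was made into libraries with a low-input kit, reads were trimmed with cutadapt, mapped to mm10 with STAR and assigned to genes with featureCounts, each with default parameters. The authors deposited raw counts per gene, unnormalized. The annotation used for counting is not given in the sources used here, and 9 of the 10 names have the form that transcript assembly gives. With default settings reads are counted without strand, and reads that fall on several genes or places are left out.

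CPM were computed over 8 samples with TMM factors in edgeR (version 4.0.16). Females were compared with male replicates 2 to 4, 7 samples, by edgeR's quasi-likelihood test after filterByExpr, with a threshold of 0.05. The SE is the absolute log2 fold change divided by the square root of F, and the 95% interval uses the t distribution with the degrees of freedom of the test (median 7.18). On simulated counts with 200 genes changed by a log2 change of 3, 67.6% of the 185 that were tested were recovered and 3.10% of calls were false, among 19542 genes. That change is larger than the fitted change of any gene of the set, so the recovery does not apply to changes of their size. The set and all gene lists were chosen with earlier results of these data known. Named genes are the 10, genes of the further family and cholinergic lists past the threshold, the 3 most abundant of each list, and the nearest 5 and 3 genes by correlation, with Gm and Rik names left out; other genes named, such as *Lypd2*, *Gpihbp1*, *Ly6f*, *Kdr*, *Emcn* and *Esam*, were chosen after their values were seen or are markers that moved with sex. Alternatives were DESeq2 (version 1.42.0), upper-quartile factors, scaling by library size alone, a filter of 1 count in all, a filter of 10 counts in each sample, inclusion of all 8 samples, robust dispersion, counts summed per locus, a replicate block, and leaving out each replicate. R 4.3.3, Python 3.11.15 and Biopython 1.88 were used. Gene models and sequences are from GENCODE M21 (GRCm38). The RefSeq promoter table matched 3 of the 10 genes, and no promoter is shown.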

Additional observations from a re-analysis of the deposited data

Results flagged for a closer look

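The check covered 47 groups of 4 samples, by sex and detected gene, from the set and the named Ly6/uPAR and cholinergic genes. Of these groups, 3 held a sample far from the other samples by Dixon's criterion, and chance alone gives about 2.35. The cell markers and the genes found by correlation were not covered. *Gpihbp1* lay at 4.06 CPM in male replicate 1, where the other males were between 0.954 and 1.34 CPM. *Lypd6b* lay at 14.0 CPM in male replicate 3, where the other males were between 9.02 and 9.56 CPM. *Chrm3* was 3.64 CPM in female replicate 1 and 1.17 to 1.5 CPM in the other females. None of the 10 genes of the set had such a sample, and the *Cd59a* value of 1.96 CPM in male replicate 1 did not meet the criterion, because the other males were spread over 248 to 329.8 CPM.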

How the results depend on the processing

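Of the 10 genes, 2 were called, and the same number was called with DESeq2, upper-quartile factors, library size alone, both other filters, robust dispersion and counts summed per locus. With all 8 samples it was 1, and leaving out 1 sample at a time gave 0 to 2. The other Ly6/uPAR genes called were 0, but 2 with DESeq2 and 1 with at least 10 counts in every sample. The cholinergic genes called were 2, but 4 with DESeq2, 3 with library size alone, 3 with at least 10 counts in every sample, 1 with upper-quartile factors, 1 with no filter beyond 1 count, 0 with all 8 samples and 0 to 1 when 1 sample was left out. Over all genes 471 were called, against 2329 with DESeq2, 808 with library size alone, 177 with no filter, 67 with all 8 samples and 88 to 171 with 1 sample left out, which has fewer samples; the cause of the other changes was not tested. Same-numbered samples of the sexes did not deviate together (correlations of -0.03, 0.0019 and -0.0024). This check cannot exclude a shared origin, and the labels do not say whether such samples are related. With a replicate block, 0 of the 10 genes, 0 cholinergic genes and 0 genes in all were called, *Ly6e* was 0.012 and *Ly6d* was -1.14. The direction turned with library size alone for *Ly6e* (0.18) and *Ly6a* (0.14). With 1 sample left out the log2 fold change ranged from -0.40 to 0.10 for *Ly6e*, above 0 without female replicate 1 or 4 or male replicate 3 or 4, from -1.54 (without female replicate 2) to 1.36 for *Ly6d*, from -0.88 to 0.026 (without male replicate 2) for *Lypd6* and from -0.67 to 0.39 (without male replicate 3) for *Ly6c1*. *Slurp2*, *Lynx1*, *Ly6h* and *Lypd1* kept their direction under all alternatives run. The mean CPM by sex moved by less than 1 SD in 54 of 54 values, with *Slurp1* at 0 not counted. By Spearman correlation, 2 of the 5 genes nearest to *Slurp2* and 1 of the 3 nearest to *Lynx1* remained. Depth limits *Slurp1*, *Ly6d* and *Lypd6*, which were near the floor of 3 counts in 1 or more samples.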
